A study of Rattus norvegicus with 6 samples.

Results

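The genes described here encode the enzymes and carriers of fatty acid oxidation, together with targets of the nuclear receptor PPAR-alpha. They were chosen as a list of 34 symbols, and a gene was measured through the array probes whose accession belongs to its symbol. All 34 had at least 1 such probe, 52 probes in all, and all 34 were well above background on all 6 arrays. They stood among 32669 entries tested, of which 11825 carried a gene symbol. The study gave male Sprague-Dawley rats (Crl:CD(SD)), bought at an age of 5 weeks and kept on a basal diet, either anthraquinone at 1000 mg/kg/day or the corn oil vehicle for 4 weeks. Renal cortex of 3 rats in the anthraquinone group and 3 rats in the corn oil group was profiled, each animal on its own 1-colour Agilent array. The question set by the series is how gene expression in this tissue changes with anthraquinone, a tricyclic quinone, and the single dose gives no dose relation.

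Long-chain fatty acids enter mitochondria as carnitine esters and are shortened there by a cycle of dehydrogenation, hydration, a second dehydrogenation and thiolysis. Very long and branched chains are first shortened in peroxisomes by a parallel set of enzymes. PPAR-alpha, bound to DNA as a heterodimer with RXR, is activated by fatty acids and induces many genes of both routes. In the kidney, fatty acid oxidation is a main energy source of the proximal tubule.

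Every value below is a log2 processed intensity relative to the 75th percentile of its own array, so that 0 is that percentile, and a difference is the mean of the anthraquinone arrays minus the mean of the corn oil arrays. Levels of different probes cannot be ranked against each other, because each probe has its own response. The 75th percentile of the processed intensity lay between 844 and 880 on the anthraquinone arrays and between 903 and 1191 on the corn oil arrays. Between 64.2 and 66.1% of spots on the anthraquinone arrays and between 68.7 and 70.7% on the corn oil arrays were well above background. By slide, the 6 arrays split into corn oil replicate 1 on one and the remaining 5 on another, which was scanned on a different day. On the shared slide, all anthraquinone arrays lay in row 2 and corn oil replicates 2 and 3 in row 1. Treatment and row cannot be told apart there. The tissue label was checked on 14 proximal tubule markers, all of which were measured, with a summed intensity of 3343 to 3684 times the 75th percentile on anthraquinone arrays and 3065 to 3466 times on corn oil arrays.

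No gene of the set passed the test. The limma fit over all entries called 0 of the 34 at an adjusted p under 0.05, beside 0.0275% of all entries (9 of 32669; 0.0153% higher and 0.0122% lower), and the lowest adjusted p among them was 0.195, for Acaa1a. At an unadjusted limma p under 0.05, 5 of the 34 were higher with anthraquinone and 0 were lower, beside 9.47% of all entries higher and 7.66% lower. The 3 anthraquinone arrays lay above the 3 corn oil arrays without overlap for 6 of the 34 (15.0% of all entries) and below them for 0 (10.2% of all entries). Differences were small and mostly of one sign: 29 of the 34 were above 0, beside 51.6% of all entries, with a median of 0.18 beside 0.0073 over all entries. The range ran from -0.067 for Etfa to 0.93 for Plin2, which as folds is 0.955 to 1.91.

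The share of differences above 0 depended on the scaling between arrays. After quantile normalization 22 of the 34 differences were above 0, beside 50.2% of all entries, and the median was 0.041. Under that scaling 0 of the 34 were called, beside 0.0245% of all entries. The 75th percentile difference minus the quantile difference had a median of 0.11 over the 34 and -0.0099 over all entries. At an unadjusted p under 0.05, 0 of the 34 were then higher and 2 were lower, beside 7.10% and 7.40% of all entries. Those 2, Hadh and Etfb, were also the ones whose groups no longer overlapped, both lower with anthraquinone (10.6% of all entries), and 0 lay above without overlap (12.0% of all entries). The probes of the set were bright, with a median level of 4.81 against -1.09 over all entries, and the 14 proximal tubule markers, 0 of them called, had a median difference of 0.11 under the 75th percentile and -0.067 after quantile normalization. Markers of other nephron parts had medians below 0, -0.21 over 5 thick ascending limb genes (0 above 0) and -0.43 over 6 principal cell genes (1 above 0), and 0 of these were called. The 7 macrophage genes, 0 of them called, had a median of 0.19 (5 above 0). The 2 below 0 were Adgre1 (-0.26) and Csf1r (-0.23). Their summed intensity, over all 7, was 19.5 to 25.9 times the 75th percentile on anthraquinone arrays and 17.8 to 19.5 times on corn oil arrays. The genes with the highest intensities in that sum, C1qb and C1qa, were both above 0. The part of probe brightness and of these cell types in the differences was not tested. In whole tissue, fewer cells of a type and less RNA per cell cannot be told apart.

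**Figure D1:**
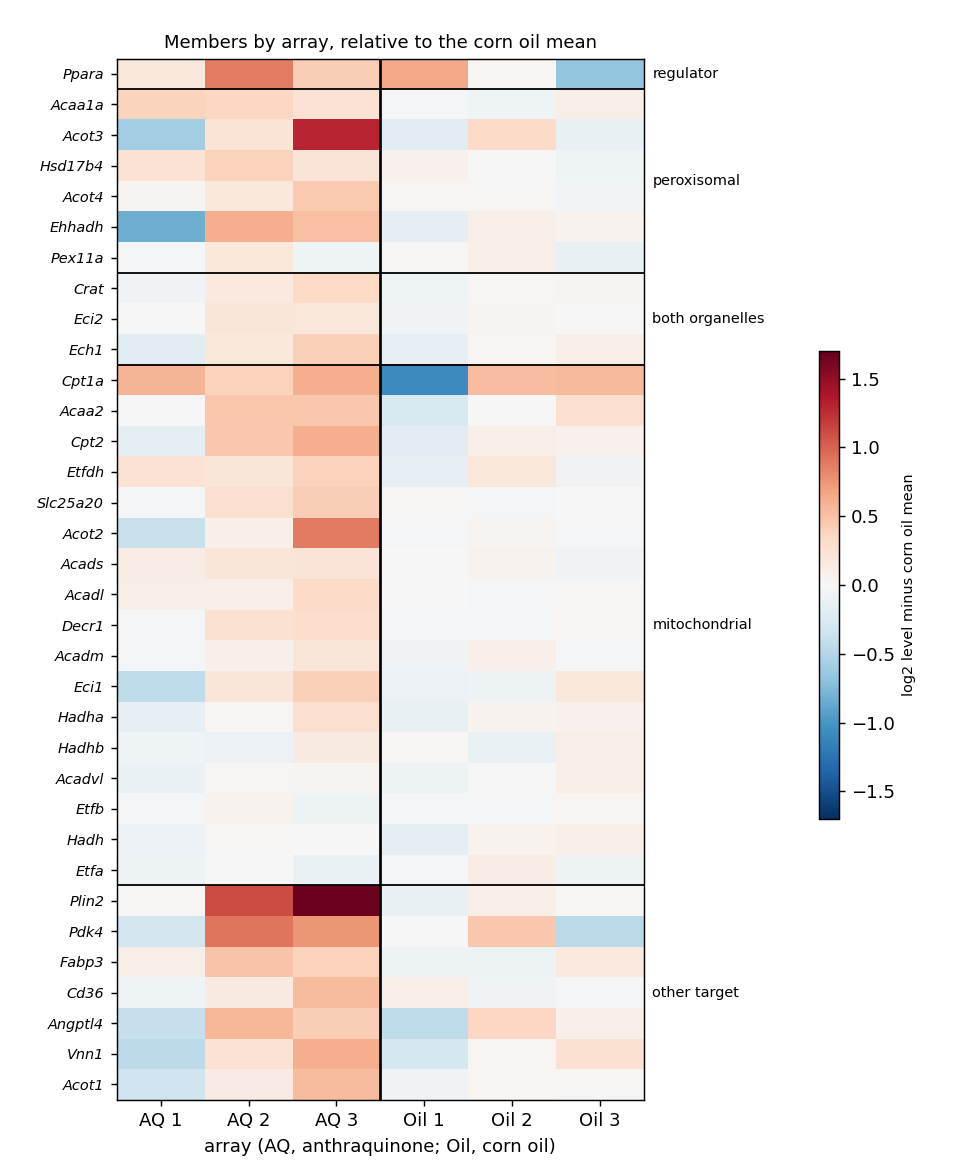
Each row is a gene and each column an array, coloured by the log2 level minus the mean of the 3 corn oil arrays, with anthraquinone (AQ) on the left and corn oil (Oil) on the right of the vertical line. Rows are grouped by role and ordered by their difference. Anthraquinone replicates 2 and 3 are mostly red, and replicate 1 holds both colours.

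Promoters of the set were searched for the element that PPAR-alpha and RXR bind, shown here because many targets of the receptor are bound through it. The RefSeq table of GRCr8 held a 300-base promoter, 250 bases before to 50 bases after the start, for 29 of the 34 genes, and Acaa2, Acadl, Decr1, Ech1 and Vnn1 were not among them. The motif, 2 copies of AGGTCA in the same direction with 1 base of any kind (N) between them, was searched on both strands with up to 2 mismatches in its 12 fixed letters. It was found in 5 of the 29 promoters (17.2%), beside 3.71% of 27457 promoters of that length, and with up to 1 mismatch in 2 of the 29 (6.90%), beside 0.463%. The half-site AGGTCA alone, which also lies within the full motif, was present in 6 of the 29 (20.7%), beside 15.7%. The 2 promoters with 1 mismatch are printed first, 5′ to 3′ on the gene's own strand with the match in capitals, followed by that of Plin2, the gene with the largest difference, which held no match.
Acot4 (GRCr8, chr6:109399604-109399903, strand +): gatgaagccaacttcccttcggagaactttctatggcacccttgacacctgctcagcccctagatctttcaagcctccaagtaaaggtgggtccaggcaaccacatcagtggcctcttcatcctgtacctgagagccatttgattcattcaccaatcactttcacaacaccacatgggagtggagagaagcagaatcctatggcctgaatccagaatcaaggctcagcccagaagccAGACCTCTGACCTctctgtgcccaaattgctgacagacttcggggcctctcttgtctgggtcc
Acadvl (GRCr8, chr10:55236656-55236955, strand -): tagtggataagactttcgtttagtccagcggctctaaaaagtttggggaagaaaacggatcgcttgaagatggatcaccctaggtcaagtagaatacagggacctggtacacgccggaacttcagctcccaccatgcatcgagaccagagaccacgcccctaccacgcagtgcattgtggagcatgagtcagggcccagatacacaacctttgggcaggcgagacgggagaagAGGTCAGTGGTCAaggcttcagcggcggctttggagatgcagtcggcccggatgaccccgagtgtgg
Plin2 (GRCr8, chr5:106228969-106229268, strand -): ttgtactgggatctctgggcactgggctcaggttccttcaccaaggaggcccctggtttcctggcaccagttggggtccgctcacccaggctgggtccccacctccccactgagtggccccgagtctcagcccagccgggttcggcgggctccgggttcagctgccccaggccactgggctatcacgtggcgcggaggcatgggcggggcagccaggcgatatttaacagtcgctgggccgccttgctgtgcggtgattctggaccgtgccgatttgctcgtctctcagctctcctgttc
The Acot4 match reads on the opposite strand, so its capitals are the reverse complement of the motif. Acot4 was 1 of the 6 genes whose groups did not overlap, and Acadvl differed by -0.014. The other 3 matches, with 2 mismatches each, were AGGACACCGGTCA in Crat, TTACCTTTGCCCT in Etfa and AGGTGAAAGGTCG in Slc25a20, genes with differences of 0.15, -0.067 and 0.22. A match describes letters in this window only.

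Ppara encodes the receptor itself. Its level was 0.053, 0.74 and 0.28 on anthraquinone arrays 1, 2 and 3, against 0.50, -0.096 and -0.81 on corn oil arrays 1, 2 and 3. The groups overlapped, and the corn oil animals spread more widely (SD 0.66) than the anthraquinone animals (SD 0.35, n = 3 each). The difference of 0.49 ± 0.35 (SE) did not pass (limma adjusted p = 0.510), and leaving out corn oil replicate 3 gave 0.15, while leaving out corn oil replicate 1 gave 0.81. A second Ppara probe gave 0.46. Of 11 partners and coactivators looked for, 8 were measured, 0 were called, and 2 had an unadjusted p under 0.05, both higher (9.47% of all entries). These, chosen after their values were seen, were the coactivator gene Ppargc1a, with a difference of 0.30 ± 0.10 (SE, limma adjusted p = 0.239), and the nuclear receptor gene Esrra, with 0.21 ± 0.066 (SE, limma adjusted p = 0.223). Rxrg, an RXR subtype gene, had the largest difference of that list, 0.35 ± 0.21 (SE, limma adjusted p = 0.445).

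Of the 6 peroxisomal genes 0 were called, beside 0.0275% of all entries. At an unadjusted limma p under 0.05, 2 were higher, beside 9.47% of all entries. All 6 differences were above 0 (51.6% of all entries), with a median of 0.25. After quantile normalization 5 of the 6 were above 0 (50.2% of all entries), with a median of 0.12. Acaa1a encodes the peroxisomal thiolase that closes the cycle, and it read 6.92, 6.90 and 6.80 on anthraquinone arrays 1, 2 and 3, against 6.51, 6.48 and 6.65 on corn oil arrays 1, 2 and 3. All 3 anthraquinone arrays were above all 3 corn oil arrays. The difference was 0.33 ± 0.083 (SE), a fold of 1.26 (limma adjusted p = 0.195). Other probes of Acaa1a gave 0.48 and 0.47, but on both of them the groups overlapped. Anthraquinone replicate 1 was the lowest anthraquinone array on those probes and the highest on the probe used. On the probe used, the difference ranged from 0.30 to 0.38 when any 1 array was left out. After quantile normalization it was 0.15 (limma adjusted p = 0.463), and the groups then overlapped.

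Hsd17b4 encodes the bifunctional enzyme that carries out hydration and the second dehydrogenation on branched chains. It read 6.18, 6.33 and 6.15 on anthraquinone arrays 1, 2 and 3, against 6.001, 5.94 and 5.86 on corn oil arrays 1, 2 and 3. These groups did not overlap either. Its difference was 0.29 ± 0.084 (SE, limma adjusted p = 0.212), a second probe gave 0.24, and quantile normalization gave 0.13.

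Ehhadh encodes the bifunctional enzyme for straight chains and is a classical PPAR-alpha target in rodent liver. Its level was 2.22, 3.67 and 3.57 on anthraquinone arrays 1, 2 and 3, against 2.90, 3.15 and 3.12 on corn oil arrays 1, 2 and 3. Anthraquinone replicate 1 lay below every corn oil array, and replicates 2 and 3 lay above every one. The mean difference was 0.099 ± 0.39 (SE, limma adjusted p = 0.921), and leaving out anthraquinone replicate 1 gave 0.57, while leaving out anthraquinone replicate 2 gave -0.16.

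Acot3 and Acot4 encode acyl-CoA thioesterases that are peroxisomal in the mouse. Acot3 was 0.53, 1.35 and 2.42 on anthraquinone arrays 1, 2 and 3, against 0.93, 1.44 and 0.99 on corn oil arrays 1, 2 and 3, so that replicate 1 was the lowest of all arrays and replicate 3 the highest. Its difference of 0.32 ± 0.46 (SE) turned to -0.18 without anthraquinone replicate 3. Acot4 was 4.61, 4.74 and 4.996 on anthraquinone arrays 1, 2 and 3, against 4.58, 4.58 and 4.51 on corn oil arrays 1, 2 and 3. Those groups did not overlap, with a difference of 0.22 ± 0.11 (SE, limma adjusted p = 0.364) and 0.22 and 0.14 on the other Acot4 probes. On the probe with 0.14 the groups overlapped. The genes Acot1 to Acot4 lie in 1 cluster on chromosome 6 of the rat assembly GRCr8 and are close relatives, and how far their probes also bind each other's transcripts was not tested.

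Pex11a encodes a membrane protein of peroxisome division. It read 5.26, 5.45 and 5.21 on anthraquinone arrays 1, 2 and 3, against 5.30, 5.38 and 5.15 on corn oil arrays 1, 2 and 3. The groups overlapped in part, with a difference of 0.028 ± 0.10 (SE) and -0.060 and -0.22 on other probes. Of 13 genes of the set with several probes, it was the only one whose probes differed in sign.

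**Figure D2:**
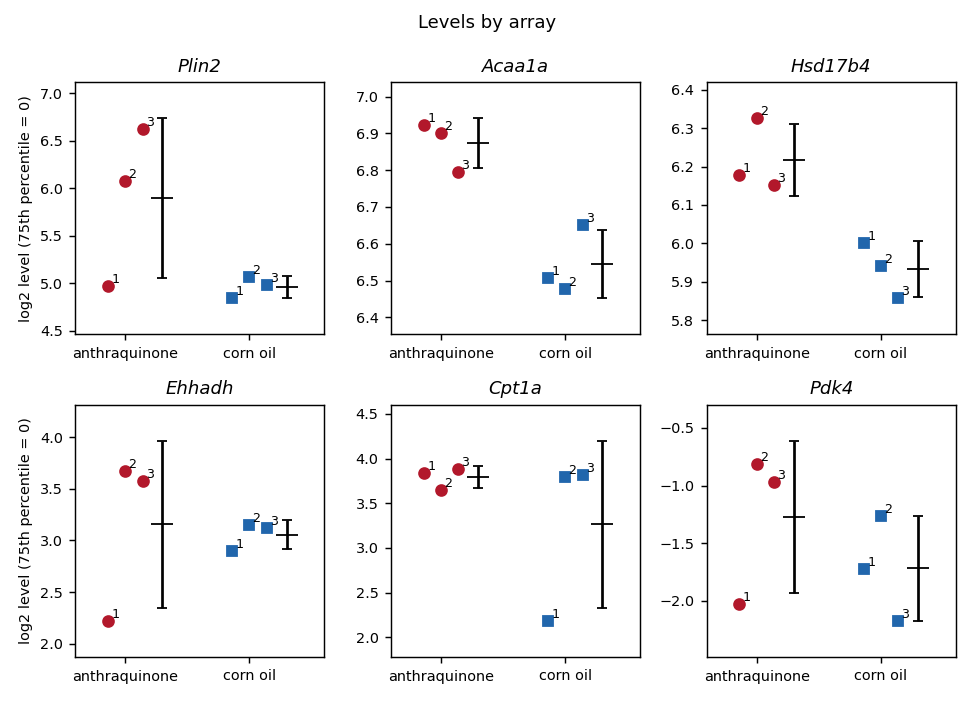
Log2 level of 6 genes on each array (vertical axes, 75th percentile of the array at 0, each gene on its own scale), anthraquinone as circles left and corn oil as squares right, with the replicate number beside each point. Black marks are the group mean ± SD (n = 3). On the probes shown, Acaa1a and Hsd17b4 do not overlap between groups. Ehhadh and Plin2 set anthraquinone replicate 1 apart from replicates 2 and 3, and Cpt1a sets corn oil replicate 1 apart from the other 5 arrays.

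Of the 17 mitochondrial genes 0 were called, beside 0.0275% of all entries. At an unadjusted limma p under 0.05, 2 were higher, beside 9.47% of all entries. There were 12 differences above 0 (51.6% of all entries) and 5 below, and the median was 0.17. After quantile normalization 8 were above 0 (50.2% of all entries) and 9 below, with a median of -0.006.

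Cpt1a encodes the outer-membrane carnitine palmitoyltransferase, the rate-limiting step of entry. It read 3.84, 3.65 and 3.88 on anthraquinone arrays 1, 2 and 3, against 2.19, 3.79 and 3.81 on corn oil arrays 1, 2 and 3. A single array, corn oil replicate 1, was low, and the other 5 lay within a narrow band. The difference of 0.53 ± 0.44 (SE, limma adjusted p = 0.578) was -0.013 without that array. Cpt1a had 1 probe, so no second probe bears on that reading.

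Cpt2, the inner-membrane partner of Cpt1a, read 3.20, 3.82 and 3.97 on anthraquinone arrays 1, 2 and 3, against 3.17, 3.47 and 3.42 on corn oil arrays 1, 2 and 3. Slc25a20, the carnitine-acylcarnitine exchanger, read 3.24, 3.55 and 3.70 on anthraquinone arrays 1, 2 and 3, against 3.30, 3.24 and 3.29 on corn oil arrays 1, 2 and 3. In both, anthraquinone replicates 2 and 3 lay above all corn oil arrays and replicate 1 did not. The differences were 0.31 ± 0.21 and 0.22 ± 0.13 (SE, limma adjusted p = 0.495 and 0.417), and they were 0.54 and 0.35 without anthraquinone replicate 1.

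Acyl-CoA dehydrogenases, which take the first step on chains of falling length, differed little. Acads, for short chains, read 5.85, 5.93 and 5.95 on anthraquinone arrays 1, 2 and 3, against 5.73, 5.78 and 5.66 on corn oil arrays 1, 2 and 3. Acadl, for long chains, read 6.34, 6.34 and 6.57 on anthraquinone arrays 1, 2 and 3, against 6.25, 6.22 and 6.26 on corn oil arrays 1, 2 and 3. Neither pair of groups overlapped, with differences of 0.18 ± 0.074 for Acads and 0.17 ± 0.090 for Acadl (SE, limma adjusted p = 0.286 and 0.372), and quantile normalization gave 0.017 and -0.006. Acadm, for medium chains, differed by 0.091 ± 0.092 and Acadvl, for very long chains, by -0.014 ± 0.087 (SE), and both groups overlapped.

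The trifunctional protein, which carries out the later steps on long chains, had differences within their standard errors in both subunit genes. Hadha read 3.36, 3.54 and 3.78 on anthraquinone arrays 1, 2 and 3, against 3.38, 3.56 and 3.58 on corn oil arrays 1, 2 and 3. Hadhb read 2.59, 2.56 and 2.82 on anthraquinone arrays 1, 2 and 3, against 2.68, 2.56 and 2.76 on corn oil arrays 1, 2 and 3. Their differences were 0.054 ± 0.13 and -0.0086 ± 0.10 (SE), and the 2 genes start head to head on chromosome 6 with overlapping promoter windows on opposite strands. Hadh, the short-chain hydroxyacyl-CoA dehydrogenase gene, read 7.53, 7.66 and 7.62 on anthraquinone arrays 1, 2 and 3, against 7.47, 7.70 and 7.73 on corn oil arrays 1, 2 and 3. Its difference was -0.028 ± 0.096 (SE) under the 75th percentile and -0.23 after quantile normalization (limma adjusted p = 0.293). Acaa2, the thiolase gene of this pathway, differed by 0.31 ± 0.18 (SE, limma adjusted p = 0.429), with anthraquinone replicates 2 and 3 above all corn oil arrays.

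Electron transfer flavoprotein passes the electrons of these dehydrogenases to the respiratory chain through its oxidoreductase. The oxidoreductase gene Etfdh read 3.52, 3.48 and 3.67 on anthraquinone arrays 1, 2 and 3, against 3.14, 3.46 and 3.22 on corn oil arrays 1, 2 and 3. Those groups did not overlap, by the margin between 3.48 and 3.46, and the difference was 0.28 ± 0.11 (SE, limma adjusted p = 0.278). The flavoprotein subunit genes Etfa and Etfb overlapped between groups, with differences of -0.067 ± 0.085 and -0.019 ± 0.073 (SE), and Etfb was -0.19 after quantile normalization (limma adjusted p = 0.323).

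Genes for auxiliary enzymes of unsaturated chains and for the mitochondrial thioesterase spread mainly among the anthraquinone animals. Decr1, a dienoyl-CoA reductase gene, differed by 0.17 ± 0.10 (SE) and Eci1, a mitochondrial enoyl-CoA isomerase gene, by 0.057 ± 0.23 (SE). Eci1 read 5.94, 6.57 and 6.77 on anthraquinone arrays 1, 2 and 3, against 6.27, 6.28 and 6.56 on corn oil arrays 1, 2 and 3. Acot2 read 3.88, 4.35 and 5.14 on anthraquinone arrays 1, 2 and 3, against 4.23, 4.31 and 4.24 on corn oil arrays 1, 2 and 3. For both genes anthraquinone replicate 1 was the lowest and replicate 3 the highest of the 6 arrays. The other 3 genes have products found in both organelles and were kept apart from either group. The differences were 0.15 ± 0.12 for the carnitine acetyltransferase gene Crat, 0.14 ± 0.085 for the isomerase gene Eci2 and 0.14 ± 0.16 for the dienoyl-CoA isomerase gene Ech1 (SE), none past the test.

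Set against each other, the peroxisomal genes had a median difference of 0.25 (6 of 6 above 0) and the mitochondrial genes one of 0.17 (12 of 17 above 0), a gap of 0.081. For each array, the median of each group was taken after subtracting each gene's corn oil mean. Peroxisomal minus mitochondrial was then 0.052, 0.20 and 0.052 on anthraquinone arrays 1, 2 and 3, against 0.047, 0.0089 and -0.10 on corn oil arrays 1, 2 and 3. The anthraquinone arrays were all above the corn oil arrays, with 0.052 just above 0.047. With quantile normalization the gap was 0.13, since the mitochondrial median dropped to -0.006 and the peroxisomal median to 0.12. With Crat, Eci2 and Ech1 counted as peroxisomal the gap was -0.029, so its sign depends on where these genes are placed. Genes outside the set did not keep the order under both scalings. The median was 0.067 over 19 genes listed as other peroxisomal and 0.052 over 14 listed under other mitochondrial oxidation. After quantile normalization these medians were -0.0017 and 0.055. The mitochondrial list is not purely mitochondrial, since it includes the carnitine uptake transporter gene Slc22a5.

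Among the remaining PPAR-alpha targets, all 7 differences were above 0 (51.6% of all entries), with a median of 0.20. Of these genes 0 were called, beside 0.0275% of all entries. At an unadjusted limma p under 0.05, 1 was higher, beside 9.47% of all entries. After quantile normalization 6 of the 7 were above 0 (50.2% of all entries), with a median of 0.17. Plin2 encodes perilipin 2, the coat protein of lipid droplets, and showed the largest difference of the set. It read 4.98, 6.08 and 6.63 on anthraquinone arrays 1, 2 and 3, against 4.84, 5.06 and 4.98 on corn oil arrays 1, 2 and 3. Anthraquinone replicate 1 lay inside the corn oil range, and replicates 2 and 3 lay more than 1 log2 unit above it. The difference was 0.93 ± 0.40 (SE), a fold of 1.91 (limma adjusted p = 0.304). It was 1.39 without anthraquinone replicate 1 (limma adjusted p = 0.104) and 0.56 without anthraquinone replicate 3. Plin2 kept a difference of 0.81 after quantile normalization.

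Pdk4 encodes the pyruvate dehydrogenase kinase that spares glucose when fat is burned. It read -2.03, -0.81 and -0.97 on anthraquinone arrays 1, 2 and 3, against -1.72, -1.26 and -2.17 on corn oil arrays 1, 2 and 3. The groups overlapped, and the difference of 0.45 ± 0.38 (SE, limma adjusted p = 0.579) was 0.83 without anthraquinone replicate 1. Fabp3, a cytosolic fatty acid binding protein gene, read 4.63, 5.02 and 4.92 on anthraquinone arrays 1, 2 and 3, against 4.45, 4.45 and 4.69 on corn oil arrays 1, 2 and 3. Its difference was 0.32 ± 0.13 (SE, limma adjusted p = 0.286), with anthraquinone replicate 1 inside the corn oil range.

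The secreted lipoprotein lipase inhibitor gene Angptl4 read 4.47, 5.42 and 5.28 on anthraquinone arrays 1, 2 and 3, against 4.41, 5.20 and 4.94 on corn oil arrays 1, 2 and 3. One array of each group, replicate 1 in both, was low, and without corn oil replicate 1 the difference of 0.20 was -0.015. Vnn1, which encodes a pantetheinase, read 3.88, 4.57 and 4.95 on anthraquinone arrays 1, 2 and 3, against 4.04, 4.36 and 4.58 on corn oil arrays 1, 2 and 3. The fatty acid translocase gene Cd36 differed by 0.20 ± 0.16 (SE), with 0.21 and 0.27 on other probes, and the cytosolic thioesterase gene Acot1 by 0.12 ± 0.22 (SE). For Vnn1 and Acot1, each with 1 probe, anthraquinone replicate 1 was the lowest of the 6 arrays and replicate 3 the highest. For Cd36 replicate 3 was the highest on all 3 probes. Adipocyte markers, of interest beside Plin2, Cd36 and Angptl4 because fat surrounds the kidney, were mostly weak: of 8, 7 had a named probe, Lep was not well above background on any array, and 5 were tested, 2 of them above 0 and 3 below. Their summed intensity was 2.25 to 3.71 times the 75th percentile on anthraquinone arrays and 2.38 to 2.97 times on corn oil arrays. The adiponectin gene Adipoq read -0.58, -0.33 and -0.29 on anthraquinone arrays 1, 2 and 3, against -0.082, -0.35 and -0.30 on corn oil arrays 1, 2 and 3. Fabp4, 1 of the 3 adipocyte markers below 0, was well above background on 2 anthraquinone and 3 corn oil arrays. It entered the fit through the corn oil group, where it is high, and its values are given further down without a test. The part of adipocytes in the differences of Plin2, Cd36 and Angptl4 was not tested.

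**Figure D3:**
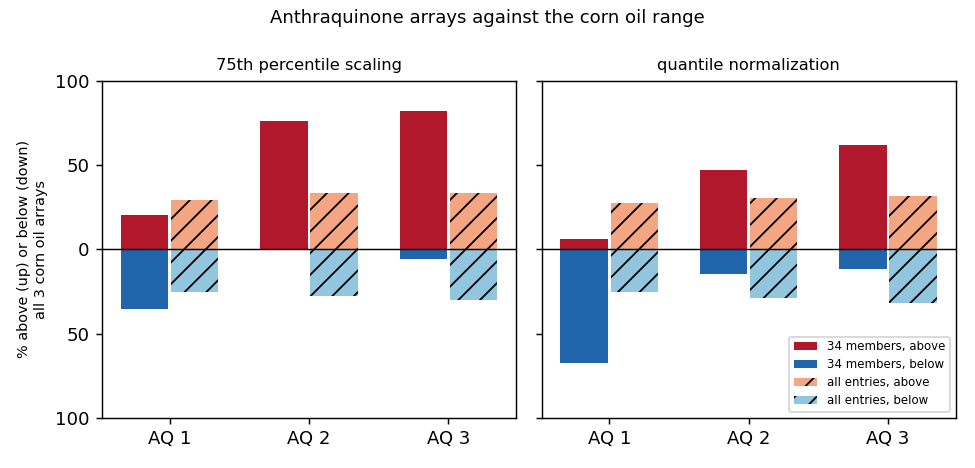
Bars give the percentage of genes that lay above (upward) or below (downward) all 3 corn oil arrays on each anthraquinone array (AQ), solid for the 34 genes and hatched for all entries, under the 75th percentile (left) and quantile normalization (right). On the left, AQ 2 and AQ 3 have 76.5 and 82.4% of the 34 genes above the corn oil range, and AQ 1 has 20.6%.

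The 3 anthraquinone animals differed among themselves across the set. On anthraquinone array 2, 26 of the 34 genes lay above all corn oil arrays and 0 below, beside 33.4% of all entries above and 27.9% below. On array 3, 28 lay above and 2 below, beside 33.5% and 30.0% of all entries. On array 1, 7 lay above and 12 below, beside 29.4% and 25.3% of all entries. Array 1 was the lowest of the 3 anthraquinone arrays for 26 of the 34 genes, beside 35.8% of all entries. After quantile normalization 2 genes were above and 23 below on array 1, beside 27.7% and 25.3% of all entries. On array 2, 16 were then above and 5 below, beside 30.7% and 28.9%, and on array 3, 21 were above and 4 below, beside 31.5% and 31.7%. Leaving out 1 array at a time under the 75th percentile gave 0 genes past the adjusted test each time, and at an unadjusted p under 0.05 only higher ones. Their number was 12 without anthraquinone replicate 1 (9.89% of all entries higher), 2 without anthraquinone replicate 2 (6.62%) and 2 without anthraquinone replicate 3 (6.35%). Dropping a corn oil array gave 3 each time, beside 6.70% for replicate 1, 6.78% for replicate 2 and 7.16% for replicate 3.

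**Figure D4:**
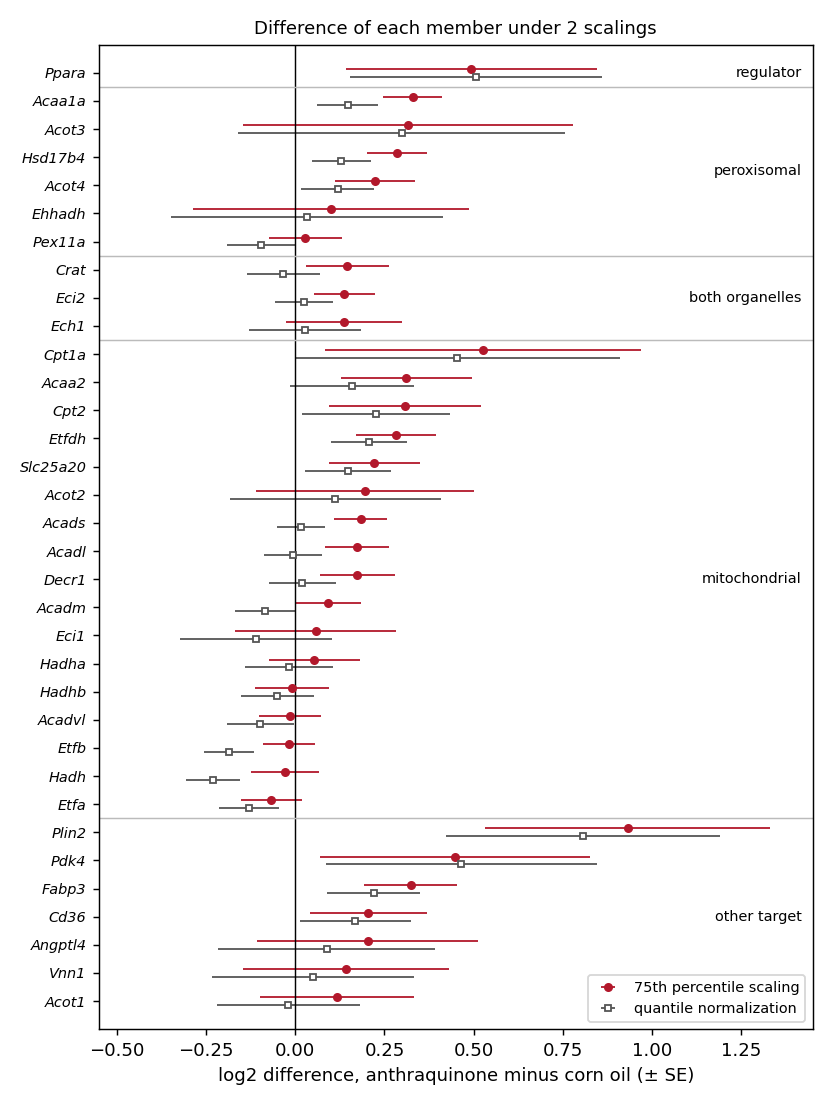
Difference of each gene (log2, anthraquinone minus corn oil, horizontal axis) with its standard error under the 75th percentile (filled circles) and quantile normalization (open squares), grouped by role. Quantile normalization moved 32 of the 34 points to the left, and Plin2 stayed the highest under both scalings.

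Further genes of the pathway gave no call in limma. At an unadjusted limma p under 0.05, 2 genes were higher and 1 lower among the other peroxisomal enzymes, and 2 and 0 in peroxisome biogenesis. The counts were 2 and 1 among genes listed under other mitochondrial oxidation and 0 and 0 among ketone body enzymes. Over all entries, 9.47% were higher and 7.66% lower at that threshold. The only such gene among other PPAR-alpha targets was Fgf21, which entered the fit through the anthraquinone group, where it is high. Its p is therefore not counted. Among 22 other peroxisomal oxidation enzymes and transporters, 19 were tested, with 12 above 0, 7 below, 0 called and a median of 0.067, and after quantile normalization 9 were above 0 with a median of -0.0017. Hacl1, the 2-hydroxyacyl-CoA lyase gene of alpha-oxidation, differed by 0.53 ± 0.12 (SE, limma adjusted p = 0.191). Its groups did not overlap (15.0% of all entries higher in this way). Amacr, of the same list, went the other way by -0.62 ± 0.19 (SE, limma adjusted p = 0.215). Its groups did not overlap either (10.2% of all entries lower in this way). Both genes were picked after their values were seen. The largest difference of that list among genes well above background on all 6 arrays was that of Ephx2, an epoxide hydrolase gene, which read 2.57, 2.85 and -1.58 on anthraquinone arrays 1, 2 and 3, against 2.07, 2.66 and 2.02 on corn oil arrays 1, 2 and 3. Anthraquinone array 3 alone was low, and the difference was -0.97 ± 1.17 (SE, limma adjusted p = 0.708). Peroxisome biogenesis genes, 15 of 15 tested, had 8 above 0 and 7 below with a median of 0.086 (8 above 0 and 0.059 after quantile normalization), the largest difference being 0.33 ± 0.15 (SE) for Pex16. Other mitochondrial oxidation genes had 13 of 14 above 0 with a median of 0.052, and 9 of 14 with a median of 0.055 after quantile normalization. The largest difference there was that of the carnitine uptake transporter gene Slc22a5, -0.25 ± 0.088 (SE, limma adjusted p = 0.246). Ketone body enzyme genes, 5 of 5 tested, had 4 above 0 and a median of 0.13, and 3 above 0 and a median of 0.051 after quantile normalization. Other PPAR-alpha targets, 14 of 15 tested, had 9 above 0 (1 of them Fgf21), 5 below and a median of 0.085. After quantile normalization 7 were above 0, with a median of 0.0031. Among those well above background on all 6 arrays, the largest difference was that of Creb3l3, a transcription factor gene of liver and gut, which read 2.82, 4.07 and 4.23 on anthraquinone arrays 1, 2 and 3, against 2.65, 3.21 and 3.37 on corn oil arrays 1, 2 and 3 (0.63 ± 0.40, SE, limma adjusted p = 0.463).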

How the data were processed

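Total RNA of renal cortex was labelled with Cy3 and hybridised to 1-colour Agilent arrays, 1 per animal, 3 with anthraquinone and 3 with corn oil, which the series' design text calls biological replicates. The deposited values are processed signal intensities which, per the file headers, came from version 10.7.1.1 of Agilent Feature Extraction (10.7 per the submitters' processing notes). A deposited table of ratios was set against the scanner values: on each array 90.7 to 97.0% of values lay within 0.01 log2 of the scanner intensity divided by 1 constant, which was close to that array's 75th percentile. It was an alternative here.

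Control spots and outlier-flagged spots were left out, spots of a probe were averaged, log2 intensity minus the array's 75th percentile was taken, and probes were named through RefSeq accessions: 27447 of 61657 probes received 1 symbol. The brightest probe stood for a gene. Entries that passed Agilent's background flag on every array of 1 group or both (32669) were fitted with limma 3.58.1 in R 4.3.3 (lmFit, eBayes), and p-values were Benjamini-Hochberg adjusted over all of them at 0.05. Only the limma fit with its adjustment was run on simulated data. The steps before it, such as scaling, naming and the filter, were not. All 34 genes are named; of the further lists, the member with the largest absolute difference among those above background on all 6 arrays, with exceptions marked and 1 such gene not reported here. The genes and lists were chosen with earlier results of these data known. The number of arrays limits the precision.

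Alternatives were quantile normalization, median scaling, normexp (offset 50) on the median signals, dim probes kept or filtered more strictly, the mean over probes, the deposited table, an intensity trend in eBayes, slide or replicate number as a block, another placing of the genes of both organelles, and each array left out.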

Additional observations from a re-analysis of the deposited data

How the results depend on the processing

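None of the 34 genes passed the adjusted limma test under any of 16 alternatives, and of 544 differences recomputed 503 kept their sign and 41 did not. Called entries numbered 9, against 16 with normexp, 6612 without the filter on dim probes (6054 higher, 558 lower), 58 with an intensity trend, 2 with the slide as a block and 1 to 32 with 1 array left out (32 without corn oil replicate 3). Genes of the set at an unadjusted p under 0.05 numbered 5, all higher (9.47% of all entries). After quantile normalization there were 2, both lower (7.40% of all entries). Under the alternatives that follow, all such genes were higher. There were 2 without the filter, 3 with the slide as a block and 2 to 12 with 1 array left out. Leaving out anthraquinone replicate 1 gave 12, and leaving out anthraquinone replicate 2 or 3 gave 2. No pairing by replicate number was visible. Same-numbered arrays had correlations of 0.028, -0.059 and -0.0074 in their deviations, and differently numbered ones -0.097 to 0.11. These values cannot show whether the animals were paired. The replicate block gave 1 called entry, 0 of them in the set. The peroxisomal median was 0.25, and 0.097 to 0.31 with 1 array left out. The mitochondrial median was 0.17, -0.0060 after quantile normalization and 0.031 to 0.21 with 1 array left out. The gap between them was 0.081, 0.16 with the slide as a block, 0.066 to 0.16 with 1 array left out and -0.029 with Ech1, Eci2 and Crat counted as peroxisomal. The lone slide of corn oil replicate 1 makes the slide block the same as leaving that array out.

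Signs turned under these alternatives. With the slide as a block these were Cpt1a (-0.013), Hadha (-0.011), Vnn1 (-0.0033) and Angptl4 (-0.015). With each array minus its median they were Acadvl (0.015), Hadhb (0.020), Hadh (0.00067) and Etfb (0.010), and with normexp Hadhb (0.0047). After quantile normalization they were Acadl (-0.0060), Acadm (-0.084), Hadha (-0.017), Eci1 (-0.11), Pex11a (-0.097), Crat (-0.033) and Acot1 (-0.020), and with the mean over probes Pex11a (-0.083). With 1 array left out, the difference ranged from -0.013 to 0.80 for Cpt1a, -0.059 to 0.036 for Acadvl, -0.055 to 0.15 for Hadha, -0.091 to 0.040 for Hadhb, -0.11 to 0.021 for Hadh, -0.12 to 0.30 for Eci1, -0.057 to 0.013 for Etfb, -0.15 to 0.49 for Acot2, -0.16 to 0.57 for Ehhadh, -0.18 to 0.77 for Acot3, -0.045 to 0.079 for Pex11a, -0.098 to 0.43 for Vnn1, -0.015 to 0.50 for Angptl4 and -0.097 to 0.34 for Acot1. The cause was not tested.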

Other observations

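Genes of fatty acid synthesis, the opposite route, gave no call: 6 of 8 were tested, 3 differences were above 0 and 3 below, and the median was 0.028. The fatty acid synthase gene Fasn had the largest, 0.31 ± 0.34 (SE, limma adjusted p = 0.677). Fgf21, a secreted hormone gene that PPAR-alpha induces in fasting liver, is one of the other PPAR-alpha targets and was picked after its value was seen. It was well above background on 3 anthraquinone arrays and 1 corn oil array, and entered the fit through the anthraquinone group, so its values are given without a test. It read -3.74, -3.90 and 0.10 on anthraquinone arrays 1, 2 and 3, against -5.79, -7.40 and -5.56 on corn oil arrays 1, 2 and 3. Fabp4, a fatty acid binding protein gene of the adipocyte list, was picked in the same way. It was well above background on 2 anthraquinone arrays and 3 corn oil arrays, entered through the corn oil group, and is likewise given without a test. It read -5.63, -4.18 and -4.11 on anthraquinone arrays 1, 2 and 3, against -2.42, -3.11 and -2.91 on corn oil arrays 1, 2 and 3.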
